A study of Homo sapiens with 5 samples.

Results

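The replication-dependent histone genes were described here in RS4;11 cells, a human leukemia line with a rearranged MLL gene. Members were the genes of a probe that names exactly 1 gene symbol, with that symbol one of H1-1 to H1-5 or starting with H2AC, H2BC, H3C or H4C followed by a number. Of 18417 genes measured, 57 met this rule: 5 of class H1, 14 of H2A, 17 of H2B, 8 of H3 and 13 of H4. Each had 1 probe. H4C14 and H4C15 held identical values on all 5 arrays, so the 57 genes gave 56 distinct sets of values, and H2BC19P is annotated as a pseudogene. The study compared 3 arrays of RNA from cells given SB216763, an inhibitor of GSK-3, a kinase, for 20 h at 10 uM with 2 arrays of RNA from cells kept with the solvent DMSO, called control. All values are log2 expression values deposited by the authors, and differences are SB216763 minus control on that scale. The labels do not say whether each array had its own culture, and the p-values therefore measure only array-to-array spread, which may be technical.

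Histones package DNA into nucleosomes. H2A, H2B, H3 and H4 form the nucleosome core, and H1 binds the linker DNA between cores. The replication-dependent genes for these proteins are present in many copies, mostly clustered on chromosome 6, and are transcribed in S phase, when newly made DNA needs histones. Their messages usually end in a stem-loop bound by SLBP in place of a poly(A) tail, and they are degraded when DNA synthesis stops. The copies of a class encode nearly the same protein from similar sequence. Because of this similarity a probe may also pick up RNA of other copies, and how far it does was not tested.

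Some histone genes of each of the 5 classes were called lower with SB216763, and no member was called higher. Of the 57 members, 23 fell, 0 rose and 34 did not pass the test, which was limma with Benjamini-Hochberg adjustment over all 18417 genes at 0.05. Over all genes the same rule called 5.92% lower and 7.21% higher. The fitted difference was below 0 for 53 of the 57 members, where it was below 0 for 49.3% of all genes. The members' median difference was -0.30, against 0.00 over all genes. The falls were moderate: 8 of the 57 members were called and at least 1.5-fold lower, where 1.7% of all genes were. The largest falls were those of H4C14 and H4C15 at 1.95-fold, H2AC4 at 1.85-fold and H3C12 at 1.80-fold. A separate probe naming both H4C14 and H4C15 showed no such fall, at a difference of 0.04 with overlapping groups.

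All 3 SB216763 arrays lay below both control arrays for 43 of the 57 members, where 19.9% of all genes did so. For 0 members they lay above both control arrays, where 21.6% of all genes did. The groups overlapped for the other 14 members. At an unadjusted p under 0.05, 40 members were lower in the limma fit, where 12.2% of all genes were. Background was taken as the 95th percentile of olfactory receptor genes on each array. By it 47 members were above background on all 5 arrays, with 22 of them called, and 4 on some arrays, with 1 called. The 6 members above it on no array, none of them called, were H1-1, H2AC1, H2AC14, H2BC1, H4C7 and H4C16. RNA of bulk cultures was measured, so fewer cells in S phase and less histone RNA per cell cannot be told apart.

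**Figure D1:**
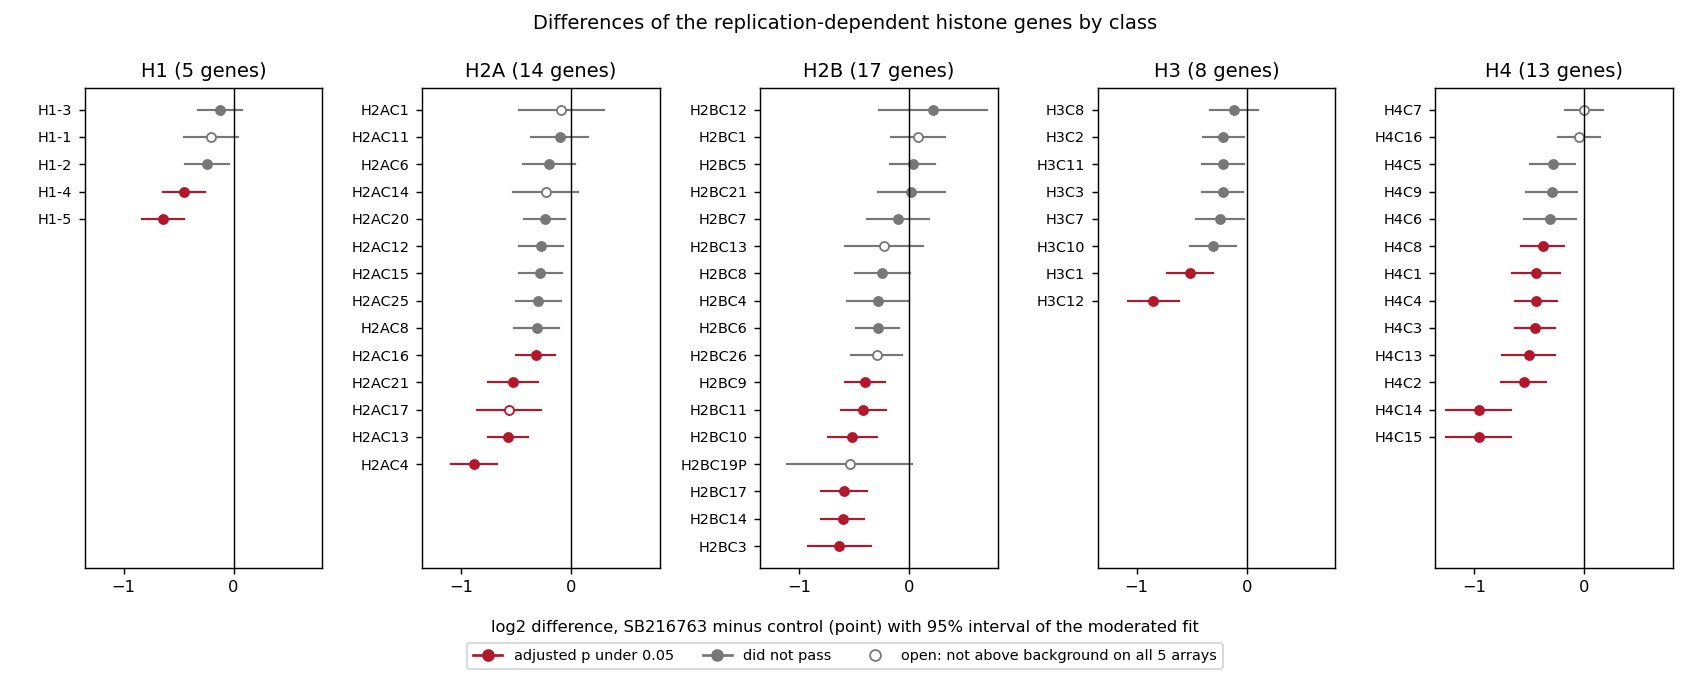
Fitted log2 difference, SB216763 minus control, of each of the 57 histone genes (points) with its 95% interval, in 1 panel per class. Red marks an adjusted p under 0.05 by limma, and open points are genes not above background on all 5 arrays. The 23 called genes all lie left of 0, and the points furthest left are H4C14 and H4C15 at -0.96. H2BC12, the gene furthest to the right, has an interval of -0.27 to 0.71.

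The calls needed both control arrays. With control replicate 1 left out, limma called 0 members, though 32 were lower at an unadjusted p under 0.05, where 10.3% of all genes were. With control replicate 2 left out it called 0 members and 26 were lower at that level, where 8.98% of all genes were. Without SB216763 replicate 1 there were 12 called members, against 2.46% of all genes. An ordinary linear model without moderation called 1 member, H2AC13, and 0.679% of all genes, while limma with array weights called 38 members and 11.7% of all genes. The members' median difference lay from -0.35 to -0.29 in the fits with 1 array left out.

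By class, the share of members that fell was 8 of 13 in H4, 2 of 5 in H1, 5 of 14 in H2A, 6 of 17 in H2B and 2 of 8 in H3. The class medians were -0.44 for H4, -0.29 for H2A, -0.28 for H2B, -0.24 for H1 and -0.23 for H3. With H4C14 and H4C15 counted once, 7 of 12 H4 genes and 22 of 56 histone genes fell. The H4 median above counts both. The mean over the H4 genes was 8.28, 8.39 and 8.32 on the SB216763 arrays, against 8.72 and 8.81 on the control arrays, a difference of -0.43. The corresponding difference was -0.35 for H2A, -0.33 for H1, -0.33 for H3 and -0.28 for H2B. In each class the 3 SB216763 array means lay below both control array means. With H4C14 and H4C15, which are 1 set of values and the largest fall of the class, counted once, the H4 difference was -0.39. Taken from the control mean, the SB216763 array means of H4 then were -0.42, -0.35 and -0.40, which met those of H1, from -0.36 to -0.29, of H2A, from -0.38 to -0.31, and of H3, from -0.35 to -0.32. These class differences were not tested against each other, since the genes of a class are not replicates.

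**Figure D2:**
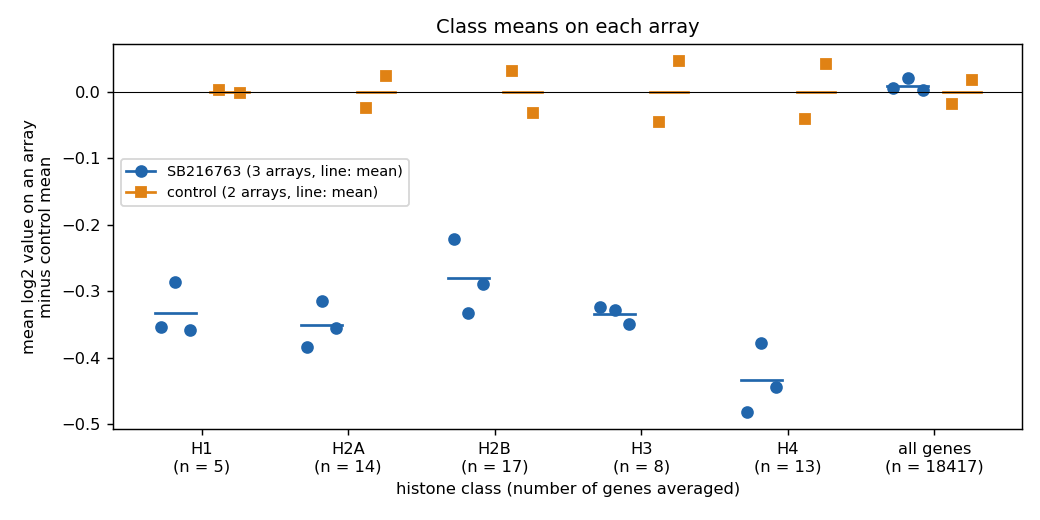
Mean log2 value of each histone class on each array, minus the class's control mean, with SB216763 arrays as circles left of the control arrays as squares and lines at the group means. H4 is drawn with H4C14 and H4C15 counted as 2 genes. In all 5 classes the SB216763 arrays lie between -0.48 and -0.22, and the mean over all 18417 genes lies within 0.02 of 0 on every array.

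H4 is the most uniform core histone, one of the pair that starts nucleosome assembly. H4C14 and H4C15, on opposite strands of chromosome 1, had the same values, 8.85, 9.28 and 9.06 on the SB216763 arrays against 10.08 and 9.97 on the control arrays. The groups were far apart, and the fall was -0.96 (SE 0.13, adjusted p = 0.00371 by limma). The probe that names both genes, given below, differed by 0.04 with overlapping groups, so the fall rests on the probes naming either gene alone. The 150 bases before the annotated start of these 2 genes were identical at 150 of 150 positions. The next fall in H4 was that of H4C2, at -0.55 (SE 0.09, adjusted p = 0.00733), and the smallest called fall was that of H4C8. H4C8 had 7.40, 7.37 and 7.46 on the SB216763 arrays, against 7.72 and 7.86 on the control arrays, a difference of -0.38 (SE 0.08, adjusted p = 0.0239). H4C1, H4C3, H4C4 and H4C13 also fell, by 0.44 to 0.51.

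The 5 H4 genes that did not pass were of 2 kinds by their values. H4C5, H4C6 and H4C9 differed by -0.29 to -0.31 with adjusted p from 0.0690 to 0.0942, and their SB216763 arrays lay below both control arrays. H4C7 and H4C16, which overlapped between the groups, differed by -0.00 and -0.05 and were above background on no array, and the sign of H4C7 turned with array weights. H4C16 is the single member on chromosome 12. Of the 48 members on chromosome 6, 20 fell, with a median difference of -0.29, as did 3 of the 8 on chromosome 1, with a median of -0.41. The chromosome 1 count and median hold the identical values of H4C14 and H4C15 as separate genes. No difference between the chromosomes is read from them.

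H3 pairs with H4 in the core and carries many of the modifications that mark active and silent chromatin. H3C12 had 8.12, 8.20 and 7.94 on the SB216763 arrays, against 8.88 and 8.99 on the control arrays. The groups did not overlap, and the fall was -0.85 (SE 0.10, adjusted p = 0.00244 by limma). H3C1 had 7.81, 7.63 and 7.82 on the SB216763 arrays, against 8.25 and 8.30 on the control arrays, a fall of -0.52 (SE 0.09, adjusted p = 0.0104). The other 6 H3 genes did not pass, with differences from -0.31 for H3C10 to -0.11 for H3C8. The groups overlapped only for H3C8 among the 8 H3 genes. H3C11 illustrates the middle of the class, with 12.60, 12.53 and 12.54 on the SB216763 arrays against 12.70 and 12.85 on the control arrays and an adjusted p of 0.145 in limma.

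H2A and H2B form dimers that flank the H3 and H4 tetramer. In H2A, H2AC4 had 9.31, 9.44 and 9.26 on the SB216763 arrays, against 10.16 and 10.28 on the control arrays. It fell by 0.89 on the log2 scale (SE 0.09, adjusted p = 0.00153 by limma). H2AC13 and H2AC21 fell by 0.57 and 0.53. H2AC17 was above background on both control arrays and on no SB216763 array, which makes its fall at least 1.28-fold, the control mean set against the higher of background and its own value on each SB216763 array (adjusted p = 0.0249 by limma). The smallest called fall was that of H2AC16, with 6.72, 6.75 and 6.76 on the SB216763 arrays against 7.03 and 7.09 on the control arrays, a difference of -0.32 (SE 0.08, adjusted p = 0.0301). Among the 9 H2A genes that did not pass, differences ran from -0.31 for H2AC8 to -0.09 for H2AC1, a gene known from testis that was above background on no array. The SB216763 and control arrays overlapped for H2AC1, H2AC6 and H2AC11.

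H2B held both called falls and every member with a difference above 0. H2BC3 had 7.07, 7.43 and 7.10 on the SB216763 arrays, against 7.89 and 7.76 on the control arrays, and fell by 0.63 (SE 0.12, adjusted p = 0.0153 by limma). H2BC14 had 12.14, 12.04 and 12.02 on the SB216763 arrays, against 12.62 and 12.72 on the control arrays, and fell by 0.60 (SE 0.08, adjusted p = 0.00444). H2BC17, H2BC10 and H2BC11 fell by 0.59, 0.52 and 0.42. H2BC9 was the smallest called fall, with 10.01, 10.04 and 10.06 on the SB216763 arrays against 10.49 and 10.39 on the control arrays, a difference of -0.40 (SE 0.08, adjusted p = 0.0153). The pseudogene H2BC19P differed by -0.54 but did not pass, and its SB216763 arrays had the largest SD of any member, 0.49. H2BC26 was above background on both control arrays and on no SB216763 array, and did not pass at -0.29.

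The 4 members with a fitted difference above 0 were all H2B genes, and they are given here after their values were seen. H2BC12, formerly HIST1H2BK, had 8.55, 7.74 and 8.05 on the SB216763 arrays, against 8.01 and 7.78 on the control arrays. The groups overlapped, and the difference of 0.22 had a 95% interval of -0.27 to 0.71 (adjusted p = 0.596 by limma). H2BC21, formerly HIST2H2BE, had 8.21, 8.13 and 8.15 on the SB216763 arrays, against 8.37 and 7.91 on the control arrays, with an interval of -0.28 to 0.33. The control arrays of H2BC21 had the largest control SD of any member, 0.32. H2BC5 had 6.42, 6.24 and 6.29 on the SB216763 arrays, against 6.23 and 6.34 on the control arrays, with an interval of -0.17 to 0.24. The sign of H2BC5 and of H2BC21 turned with arrays centred on their medians, so no direction is given for either. The remaining gene, H2BC1, is known from testis and was above background on no array. H2BC5, H2BC12 and H2BC21 are among the histone genes known to make polyadenylated transcripts as well as stem-loop ones, as is H2AC6, whose difference was -0.20 with overlapping groups (adjusted p = 0.256). These genes were named after their values were seen, and not from a full list of such genes. Whether the kind of transcript goes with the difference was not tested. The values deposited for a gene do not separate the 2 kinds of transcript. H2BC7 also overlapped between the groups, at -0.10 with an interval of -0.38 to 0.18. Probes that name H2BC5, H2BC12 or H2BC21 beside other genes were read apart, in a fit of all probes tested singly. The probe of H2BC5, H2BC12, H2BC12L and H2BC17 was at -0.32, and that of H2BC19P, H2BC20P and H2BC21 at -0.22. That of H2BC18, H2BP1 and H2BC21 was at 0.39. None of these probes was called by limma, and in each the groups did not overlap.

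**Figure D3:**
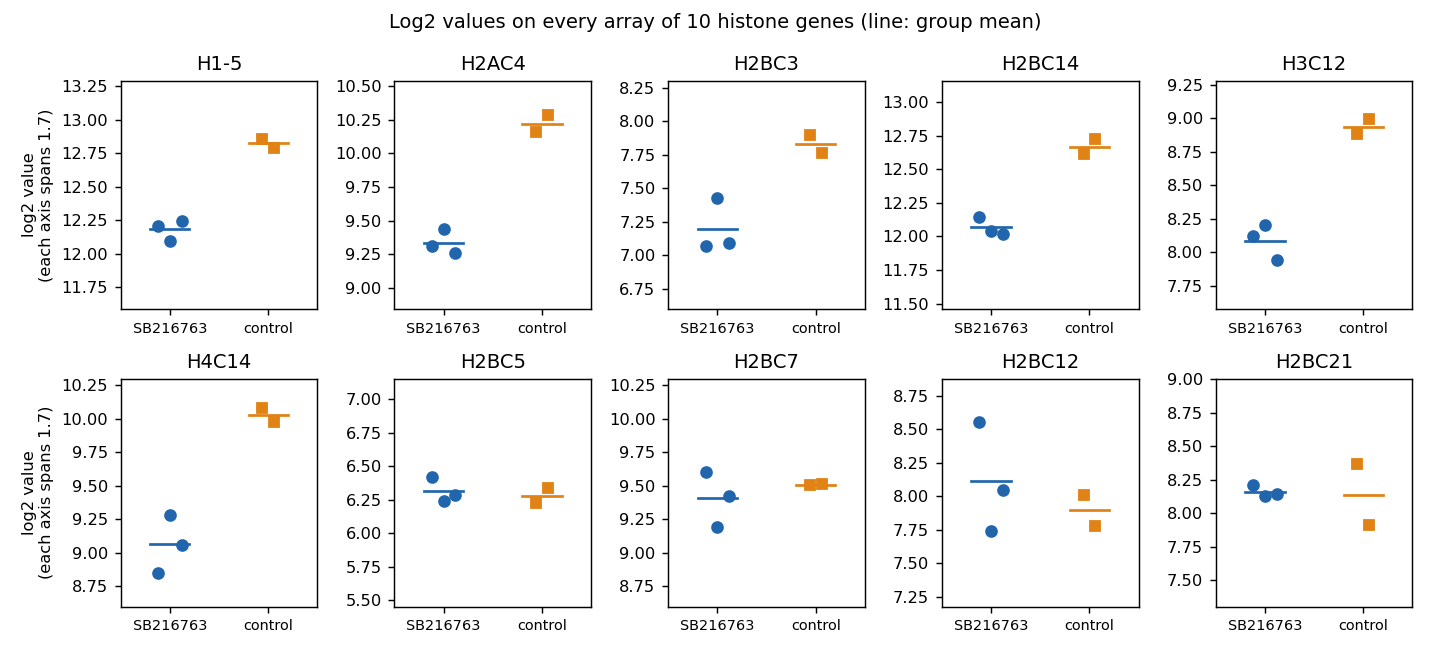
Log2 values on every array of 10 histone genes, with SB216763 arrays as circles on the left, control arrays as squares on the right and lines at the group means. In H1-5, H2AC4, H2BC3, H2BC14, H3C12 and H4C14 all circles lie below both squares, while in H2BC5, H2BC7, H2BC12 and H2BC21 circles and squares overlap. Each axis spans the same range of log2 values, so heights are comparable as differences but not as levels between genes.

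H1 compacts the fibre between nucleosomes, and its 5 genes are given in full. H1-5 had 12.21, 12.09 and 12.24 on the SB216763 arrays, against 12.85 and 12.79 on the control arrays, and fell by 0.64 (SE 0.08, adjusted p = 0.00350 by limma). H1-4 had 12.26, 12.39 and 12.26 on the SB216763 arrays, against 12.73 and 12.79 on the control arrays, and fell by 0.45 (SE 0.08, adjusted p = 0.0127). Both genes had separate groups. H1-2 had 8.56, 8.71 and 8.59 on the SB216763 arrays, against 8.91 and 8.81 on the control arrays, also without overlap, but its difference of -0.24 did not pass (adjusted p = 0.114). H1-3 had 8.79, 8.67 and 8.68 on the SB216763 arrays, against 8.77 and 8.91 on the control arrays, with an interval of -0.32 to 0.07. H1-1 had 5.23, 5.51 and 5.26 on the SB216763 arrays, against 5.57 and 5.51 on the control arrays, and was above background on none of them.

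Many H2A and H2B genes start head to head with a shared promoter between them. Of the members with a RefSeq promoter window, 9 pairs of 1 H2A and 1 H2B gene on opposite strands started 215 to 248 bases apart. Both genes fell in 1 pair, H2AC17 by at least 1.28-fold, the bound given above, and H2BC17 by 0.59 on the log2 scale. In 3 pairs 1 gene was called: H2BC11 at -0.42 beside H2AC11 at -0.10, H2AC13 at -0.57 beside H2BC13 at -0.23, and H2BC14 at -0.60 beside H2AC14, which was above background on no array. H2BC13 was above background on 1 of 3 SB216763 arrays and on both control arrays. In the other 5 pairs neither gene was called. The difference within a pair was not tested.

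**Figure D4:**
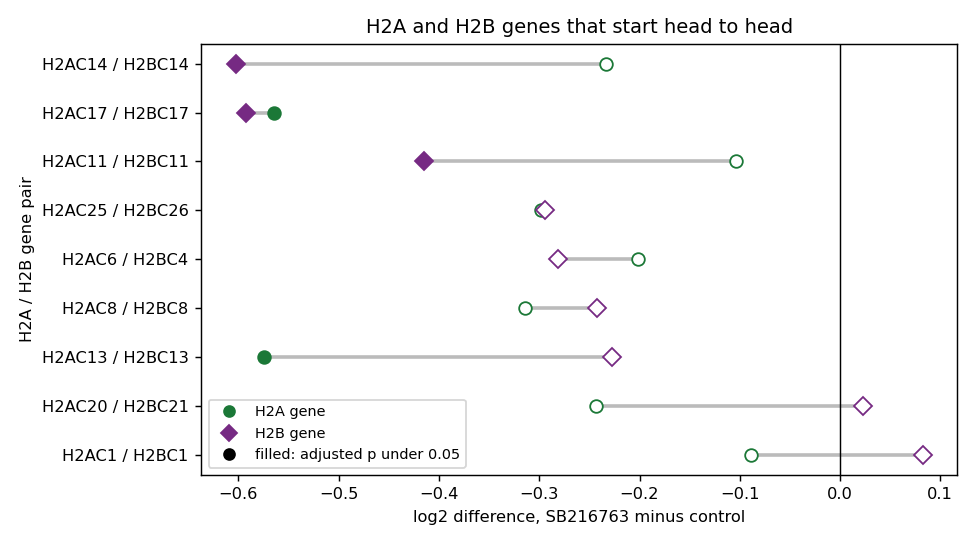
Fitted log2 differences, SB216763 minus control, of the 9 pairs of an H2A gene (circle) and an H2B gene (diamond) that start head to head, with filled symbols for an adjusted p under 0.05 by limma. H2AC1, H2AC14, H2AC17, H2BC1, H2BC13 and H2BC26 were not above background on all 5 arrays, so the distance between the symbols of their pairs rests on values at or near background. In H2AC11 with H2BC11, both above background on all arrays, the symbols lie at -0.10 and -0.42.

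Promoter windows of RefSeq, assembly GRCh38.p14, matched 51 of the 57 members and run from 250 bases before to 50 after the annotated start. H4C1, H4C3, H3C11, H3C12, H2AC12 and H2BC19P had no entry. The windows were searched on both strands for the octamer ATTTGCAT, known from H2B promoters as a site of OCT1, for CCAAT, for the TATA box as TATAAA, and for the E2F words TTTCGCGC, TTTGGCGC, TTTCCCGC and TTTGCCGC. No word contains another. The octamer was in 13 of 16 H2B windows and 10 of 13 H2A windows, and in 0 of the 5 H1, 6 H3 and 11 H4 windows, against 1.8% of all 27305 windows. Windows of head-to-head genes overlap, so an H2A and an H2B gene can hold the same copy. CCAAT was in every H1, H2A, H2B and H3 window and in 3 of 11 H4 windows, against 35.7% of all windows. An E2F word was in 15 of the 51 windows, against 3.33% of all.

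Members that fell and members that did not pass both held these words. With the octamer, 6 of 13 H2B genes fell, with a median difference of -0.28. H2BC5, H2BC13 and H2BC26, whose windows lack those letters, did not pass. Over all classes 10 of the 23 members with an octamer fell, as did 10 of the 28 without it, with medians of -0.28 and -0.30. With an E2F word 8 of 15 members fell, and without one 12 of 36 did, with medians of -0.32 and -0.29. With TATAAA 13 of 34 fell, and without it 7 of 17 did, with medians of -0.26 and -0.30. With CCAAT 15 of 43 fell, with a median of -0.28. The 8 members without CCAAT were all H4 genes, and 5 of them fell, H4C14 and H4C15 included, with a median of -0.41. These counts carry no test, and a match is a description, not a site.

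The 150 bases before the start are printed for the largest fall in H2A, for an H2B gene that fell, for 2 H2B genes that did not pass, and for the largest fall in H4, to set their words side by side, 5′ to 3′ on the strand of the gene. Capitals mark the words named above on either strand. The regions are chr6:26033619-26033768 on the minus strand for H2AC4, chr6:27814872-27815021 on the plus strand for H2BC14, chr6:27146859-27147008 on the minus strand for H2BC12, chr1:149886683-149886832 on the minus strand for H2BC21 and chr1:149832507-149832656 on the plus strand for H4C14, all in GRCh38.p14.
H2AC4: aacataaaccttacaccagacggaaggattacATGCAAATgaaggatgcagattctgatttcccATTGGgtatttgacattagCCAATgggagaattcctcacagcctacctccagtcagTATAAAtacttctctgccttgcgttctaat
H2BC14: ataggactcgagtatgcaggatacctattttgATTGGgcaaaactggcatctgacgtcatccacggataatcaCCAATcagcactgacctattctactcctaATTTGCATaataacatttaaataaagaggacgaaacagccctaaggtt
H2BC12: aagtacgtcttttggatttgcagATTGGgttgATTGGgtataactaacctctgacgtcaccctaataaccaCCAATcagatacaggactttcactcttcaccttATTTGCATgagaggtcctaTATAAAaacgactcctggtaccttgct
H2BC21: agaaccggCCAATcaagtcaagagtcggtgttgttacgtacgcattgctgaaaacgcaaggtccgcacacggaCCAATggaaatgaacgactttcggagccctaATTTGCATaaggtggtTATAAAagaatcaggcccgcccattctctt
H4C14: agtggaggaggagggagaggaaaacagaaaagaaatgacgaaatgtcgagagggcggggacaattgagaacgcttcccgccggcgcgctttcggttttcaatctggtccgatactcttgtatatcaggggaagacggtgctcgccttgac
H2BC14, which fell, and H2BC12 and H2BC21, which did not pass, all hold the octamer. H4C14 holds none of the words in this stretch.

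Probes that name several histone genes were kept apart from the genes above and read in a fit of all 33297 probes tested singly, in which limma called 2.24% lower and 3.49% higher. There were 20 such probes with 17 distinct sets of values, and 14 of the histone genes they name have no probe of their own here. Of the 17 sets, 2 fell and 1 rose, with a median difference of -0.29 and 14 not called. The probe of H3C4 and H2AC7 fell by 0.49 (SE 0.09, adjusted p = 0.0451). The probes that name H2BC18 and H2BP1 alone moved in opposite directions, one at 0.72 (SE 0.14, adjusted p = 0.0434) and the other at -0.38 (SE 0.07, adjusted p = 0.0435). The first had 9.13, 8.73 and 9.06 on the SB216763 arrays against 8.28 and 8.23 on the control arrays, and the second had 11.28, 11.22 and 11.25 against 11.62 and 11.64. A further probe, naming both H4C14 and H4C15, had 7.81, 7.61 and 7.94 on the SB216763 arrays against 7.85 and 7.64 on the control arrays. Its groups overlapped, at a difference of 0.04, unlike the probes that name either gene alone.

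Of 32 measured genes of histone transcription, end processing and decay, limma over all genes called 6 lower and 1 higher and left 25 uncalled (median difference -0.01), where 5.92% of all genes were called lower and 7.21% higher. NPAT, the coactivator of histone transcription at the histone locus body, had 8.34, 8.23 and 8.54 on the SB216763 arrays, against 8.78 and 8.93 on the control arrays, and fell by 0.48 (SE 0.11, adjusted p = 0.0274). CASP8AP2, a further protein of that body, fell by 0.47 (SE 0.10, adjusted p = 0.0212). SLBP, which binds the stem-loop, had 9.78, 9.69 and 9.74 on the SB216763 arrays, against 10.07 and 10.06 on the control arrays, and fell by 0.33 (SE 0.08, adjusted p = 0.0292). The cyclins CCNE2 and CCNE1 and their kinase CDK2, which phosphorylate NPAT, fell by 0.91, 0.57 and 0.63. The gene that rose was TENT5A, listed as a poly(A) polymerase, at 0.58 (SE 0.07). Whether it acts on histone messages was not tested.

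Of 31 measured histone chaperones and chromatin assembly genes, 12 fell and 1 rose by the same test, 18 were not called, and the median difference was -0.20, against the same 5.92% of all genes lower and 7.21% higher. CHAF1B and CHAF1A, subunits of the assembly factor that follows the fork, fell by 0.94 and 0.76, MCM2, a helicase subunit that also binds H3 and H4, by 0.81, and the H3 and H4 chaperone ASF1B by 0.67. NAP1L1, a chaperone of H2A and H2B which is given here as the single call in that direction, rose by 0.48.

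Of 13 measured histones listed as variant or replication-independent, and outside the member rule, 4 fell, 8 were not called and 1 rose (median difference -0.16). Whether each is made independently of replication in these cells was not tested. H2AC25 and H2BC26, also named H2AW and H2BU1, were listed as variants too, but the member rule counts them among the histone genes above. Over all genes 5.92% fell and 7.21% rose, so 1 riser among 13 is near the background. H2AX, the variant phosphorylated at DNA breaks, had 9.56, 9.54 and 9.56 on the SB216763 arrays, against 10.04 and 10.21 on the control arrays, and fell by 0.57 (SE 0.08, adjusted p = 0.00542 by limma). H2AZ1 fell by 0.70, the linker histone H1-10 by 0.42 and MACROH2A1 by 0.42. H2AJ, likewise given because it was the single call upward, rose by 0.28, at an adjusted p of 0.0461 that was lost with arrays centred on their medians.

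Of 27 measured S phase genes, 22 fell, 5 were not called and 0 rose, beside 5.92% lower and 7.21% higher over all genes. Their median difference was -0.64, next to -0.30 for the histone genes. UNG, the uracil DNA glycosylase, was 2.30-fold lower, CDC45 and MCM5, parts of the replicative helicase, 2.39-fold and 2.05-fold lower, and CDC25A, the phosphatase that activates CDK2, 2.15-fold lower. All 27 were above background on all 5 arrays. They moved with the histone genes on the same arrays, and their part in the histone result was not tested. The calls in these 4 lists needed both control arrays, as did nearly all calls over all genes.

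**Figure D5:**
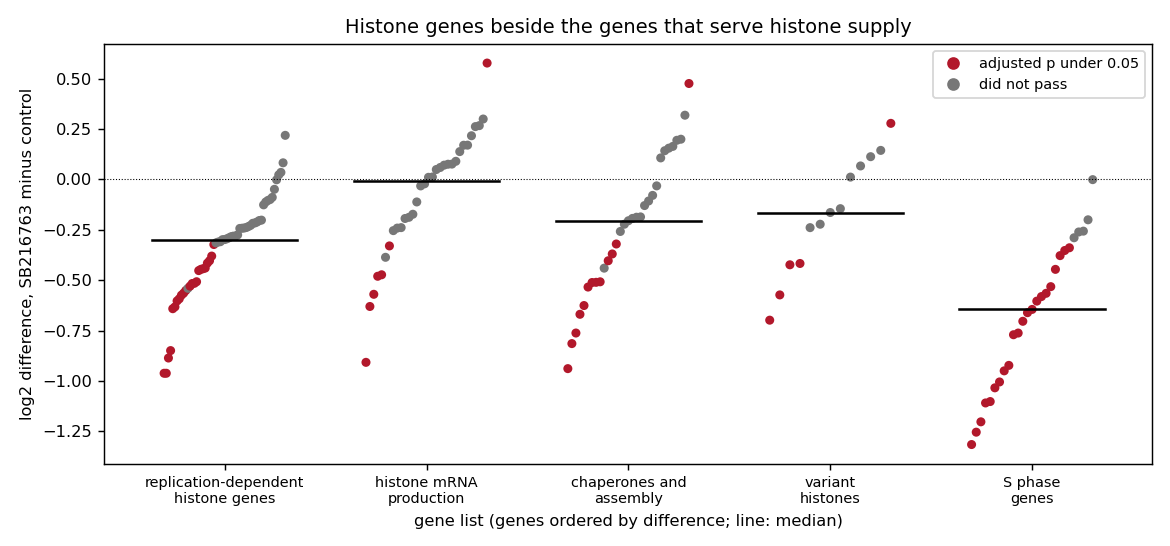
Fitted log2 differences, SB216763 minus control, of the 57 histone genes and of the 4 lists of histone supply genes, each ordered by difference, with red points for an adjusted p under 0.05 by limma and black lines at the medians. The medians are -0.30 for the replication-dependent histone genes, -0.01 for histone mRNA production, -0.20 for chaperones and assembly, -0.16 for variant histones and -0.64 for S phase genes.

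The labelled cell type was checked with markers. Of 10 measured B cell precursor markers, 5 were above background on all 5 arrays, CD79B, PAX5, IGLL1, CD38 and CD9, and CD22, VPREB1, DNTT and CD34 on none. CD38 was the single one of the 10 to pass the test, and it fell. All 5 measured monocyte and granulocyte markers were above background on every array, and 0 of 6 T cell markers were. Of 4 NK cell markers, NCR1 and PRF1 were above background on all 5 arrays. The mean over the monocyte and granulocyte markers was 7.24 to 7.46 on the SB216763 arrays and 7.27 to 7.34 on the control arrays, and 0 of the 5 passed the test. For the 2 measured erythroid markers, neither above background on all 5 arrays nor called, the mean was 5.73 to 5.94 on the SB216763 arrays and 5.95 to 6.33 on the control arrays, without overlap. For the 10 B cell precursor markers it was 6.25 to 6.40 on the SB216763 arrays and 6.35 to 6.41 on the control arrays, and for the 4 NK cell markers 5.37 to 5.57 on the SB216763 arrays and 5.48 to 5.51 on the control arrays. The part of these markers in the histone result was not tested.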

How the data were processed

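Total RNA was measured on 3 SB216763 and 2 control Affymetrix whole-transcript arrays. The authors deposited 1 table of log2 expression values, made with Affymetrix Expression Console per the submitters' processing notes. Their range shows the log2 scale. The summarisation method, the software version and the build: not given in the sources used here. The array medians lay between 6.77 and 6.84 and no further normalization was applied. The number of arrays limits the precision. Of 33297 probes, 19460 named 1 gene symbol in the platform annotation, which left 18417 genes after taking the probe with the highest mean per gene.

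The group difference was fitted for every gene with limma 3.58.1 (R 4.3.3) and tested on both sides, with p-values adjusted by Benjamini-Hochberg across the 18417 genes. SE and 95% intervals come from the moderated variances. Tables and figures used pandas 2.3.3 and matplotlib 3.10.9. In 10 simulations of SB216763 against control on 18417 genes, 93.4% of 1.5-fold changes were recovered and 6.35% of the calls were unchanged genes. Each changed 200 genes and drew independent normal noise from the moderated variances. The simulations check the procedure and do not give the power of these arrays.

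The members, lists and naming rule were chosen with earlier results of these data known. Values on every array are given for the largest and smallest called change of a class, for every H1 gene, and for other genes where stated. From each list up to 4 genes with the smallest p are named, and always SLBP, NPAT and CASP8AP2. Genes of a list that share every probe were not analysed here. The alternatives tried were quantile normalization, centring, a filter on dim genes, the mean or the lowest probe of a gene, array weights, a variance trend, a fit without moderation, a replicate block, leaving out each array, and testing all probes singly.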

Additional observations from a re-analysis of the deposited data

How the results depend on the processing

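Of the 23 histone genes called lower by limma, 23 kept their call with a filter on dim genes, quantile normalization, centring, the mean or the lowest probe of a gene and a variance trend, where 23 to 32 members were called. Over all genes those settings called 1043 to 1536 lower, against 1090 in the fit above. With array weights 22 of the 23 kept their call among 38 called members, and 2152 of all genes were called lower. The replicate block kept 22 and called 23 members and 889 of all genes lower, and it ended the call of H2AJ. The labels do not say whether replicate numbers pair the arrays. Deviations of arrays with the same number correlated at -0.05 and -0.10. These values cannot decide it, since the deviations of 2 control arrays mirror each other. Without moderation 1 was kept, 6 S phase genes, 3 chaperones and 1 histone mRNA factor were called lower, with 0 variant histones lower and 0 chaperones higher. Tested among all probes, 16 of the 23 were kept, with 3 histone mRNA factors and 7 chaperones lower and 0 variant histones higher. With identical genes counted once 22 were called. Leaving out 1 SB216763 array gave 12 to 25 histone genes and 17 to 22 S phase genes called lower. It gave 6 to 11 chaperones, 3 to 6 histone mRNA factors and 2 to 4 variant histones called lower. Rising genes then numbered 0 to 2 among chaperones, 1 to 2 among histone mRNA factors and 0 to 1 among variants. Over all genes, leaving out SB216763 replicate 1, 2 or 3 gave 453, 1179 and 798 called lower. It gave 540, 1680 and 808 called higher. Leaving out either control array ended nearly all calls over all genes, those of the members and lists included. That leaves 1 control array assumed to vary like the SB216763 arrays. Over all genes, 45.1% of calls were lower, and 59.4% after centring each array.

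Rising histone mRNA factors numbered 2 with the filter on dim genes, 3 after quantile normalization, 3 with a variance trend and 5 with array weights. Rising chaperones numbered 2 with the filter, 2 with the mean and 2 with the lowest probe, 2 with a variance trend and 4 with array weights. Rising variant histones numbered 0 after quantile normalization, 0 after centring and 0 with a variance trend. Over all genes, 1328 were called higher in the fit above, 1685 with the filter, 1486 after quantile normalization and 1048 after centring. With the mean probe 1324 were called higher, with the lowest probe 1281, with a variance trend 1688 and with array weights 2568. No change of a list is read from these counts, and the cause was not tested.

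Class medians kept their sign in every setting run. H1 was -0.35 with the filter on dim genes, -0.29 after centring and -0.30 with array weights, H2A was -0.33 after quantile normalization, -0.34 after centring and -0.34 with array weights, and H3 was -0.30 and -0.28 after quantile normalization and centring. Leaving out 1 array gave -0.29 to -0.19 for H1, -0.32 to -0.27 for H2A, -0.35 to -0.28 for H2B, -0.28 to -0.20 for H3 and -0.49 to -0.34 for H4.

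Signs turned for uncalled members. H2BC1 was -0.0185, H2BC7 0.0718 and H4C7 0.0255 with array weights, H2BC5 was -0.0172 after centring, and H2BC21 was -0.0122 after quantile normalization and -0.0295 after centring. Leaving out 1 array gave -0.25 to 0.0749 for H2AC1, -0.0071 to 0.17 for H2BC1, -0.0208 to 0.0914 for H2BC5, -0.20 to 0.0082 for H2BC7, -0.20 to 0.25 for H2BC21 and -0.0213 to 0.0182 for H4C7. Genes not above background, among them H4C7 and H4C16, carry little information on a change.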
